A study of Mus musculus with 18 samples.

Results

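The data described here are the counts of 6 mature miRNA names made from the miR-199a, miR-199b and miR-214 hairpins, out of 1431 names in each table. The 6 names were listed by family: mmu-miR-199a-3p, mmu-miR-199b-3p, mmu-miR-199a-5p, mmu-miR-199b-5p, mmu-miR-214-3p and mmu-miR-214-5p. The prefix mmu, for mouse, is left out below. miR-199a-3p and miR-199b-3p had the same count in all 18 libraries, so the names hold 5 separate signals, and the shared one is written miR-199a/b-3p. Small RNA was sequenced from eyes, lungs and testicles of normal male C57BL/6 mice aged 8 to 12 weeks, with 3 left and 3 right libraries of each organ. No allele, agent or transgene distinguishes the groups. Whether a left and a right library share a mouse is not labelled, so n = 6 per organ may overstate the replication, and p-values measure only the spread between these libraries.

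As background, the hairpins of miR-199a-2 and miR-214 are cut from Dnm3os, a long non-coding RNA transcribed opposite to the dynamin gene Dnm3. It is known for its expression in mesenchymal cells, such as fibroblasts and the cells of developing skeleton, and mice that lack it have skeletal defects. Each hairpin gives a 5p and a 3p strand, and either can be loaded into an Argonaute protein, which pairs with target mRNAs mainly through the seed, bases 2 to 8 of the miRNA. miR-199a-5p is known to repress Cav1 in fibroblasts and Hif1a in heart muscle cells, miR-199a-3p to repress Mtor and Met, and miR-214-3p to repress Ezh2. The libraries are bulk samples of organs, so fewer cells of a type and less RNA per cell cannot be told apart.

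The mature sequences show which names can be counted apart, and the seed is in capitals (RefSeq, GRCm38.p6).
miR-199a-3p and miR-199b-3p: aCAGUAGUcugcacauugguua
miR-199a-5p: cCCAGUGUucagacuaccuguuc
miR-214-3p: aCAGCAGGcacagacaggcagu
miR-214-5p: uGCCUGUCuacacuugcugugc
The 3p strands of miR-199a and miR-199b were identical over all 22 bases, so no read of that strand can be assigned to either gene. The 4 sequences had 4 different seeds, and the seeds of miR-199a/b-3p and miR-214-3p differed at 2 of 7 bases. The miR-214-3p seed is shared with 1 other mouse miRNA in the RefSeq table, miR-761, which was not analysed here. miR-199b-5p is the sixth name. How the authors' counting assigned reads that match more than 1 name is not given in the sources used here, so the division of reads between miR-199a-5p and miR-199b-5p is uncertain.

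The hairpins are printed with their mature strands in capitals, to show the loci from which the strands come (RefSeq, GRCm38.p6).
Mir199a-2, chr1:162217814-162217923, plus strand: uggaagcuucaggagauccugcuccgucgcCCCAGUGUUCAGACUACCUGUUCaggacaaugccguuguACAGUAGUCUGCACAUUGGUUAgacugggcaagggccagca
Mir214, chr1:162223368-162223477, plus strand: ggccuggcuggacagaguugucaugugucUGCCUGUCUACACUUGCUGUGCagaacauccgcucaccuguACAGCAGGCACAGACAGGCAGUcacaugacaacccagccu
Mir199a-1, chr9:21496495-21496564, minus strand: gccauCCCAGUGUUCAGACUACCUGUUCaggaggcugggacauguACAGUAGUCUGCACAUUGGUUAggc
Mir199b, chr2:32318460-32318569, plus strand, with only the 3p strand in capitals: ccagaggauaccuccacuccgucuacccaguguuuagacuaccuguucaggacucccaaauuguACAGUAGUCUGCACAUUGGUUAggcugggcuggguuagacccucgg
Mir199a-2 and Mir214 lie 5444 bases apart, and each overlaps an exon of Dnm3os (chr1:162217623-162225550, plus strand) within an intron of Dnm3 on the opposite strand (GENCODE M21). Mir199a-1 lies within an intron of Dnm2 and Mir199b within an intron of Dnm1, each on the strand opposite to its host, so all 4 hairpins are antisense to a dynamin gene. miR-199a-5p and miR-199a-3p can come from chromosomes 1 and 9, miR-199b-5p only from chromosome 2, and both miR-214 strands only from chromosome 1.

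The start of Dnm3os is shown because the miR-199a-2 and miR-214 hairpins share this transcript, and matches to E box and CArG motifs are in capitals (RefSeq promoter window chr1:162217373-162217672, plus strand, from 250 bases before the start of the gene, GRCm38.p6).
Dnm3os: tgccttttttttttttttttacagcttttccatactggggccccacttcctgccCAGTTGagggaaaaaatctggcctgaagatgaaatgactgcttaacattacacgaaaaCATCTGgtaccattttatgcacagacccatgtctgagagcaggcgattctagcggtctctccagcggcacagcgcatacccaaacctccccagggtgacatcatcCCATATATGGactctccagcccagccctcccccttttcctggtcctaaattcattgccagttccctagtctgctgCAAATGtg
E boxes, which basic helix-loop-helix factors such as Twist1 bind, were searched as CANNTG, which reads the same on both strands. Matches began at positions -196, -138 and 43 relative to the start. At least 1 E box stood in 72.3% of 32851 promoter windows of this length, and 17.6% held at least as many as Dnm3os. A CArG box, the motif of serum response factor, began at position -33 and overlapped no E box, and 1.63% of the windows held one on either strand. These matches describe the letters of the window, and binding was not measured.

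The counts summed to between 2451484 and 2680204 per eye library, 2538402 and 2790471 per lung library and 952608 and 1893132 per testicle library. Of the 1431 names, 642 passed the filter on low counts over all libraries, and all 6 members were among them. Levels below are counts per 1000000 (CPM) scaled by the trimmed mean of M values (TMM-scaled CPM). The organ labels were checked against miRNAs known from particular cell types, summed per library as CPM of the library total. The 3 photoreceptor miRNAs (miR-183-5p, miR-182-5p, miR-96-5p) summed to 108822 to 124738 CPM in eyes, 2511 to 4699 in lungs and 998 to 2546 in testicles. The endothelial pair miR-126a-3p and miR-126a-5p summed to 24303 to 29461 CPM in eyes, 56183 to 69038 in lungs and 20496 to 25953 in testicles. The gonadal pair miR-202-5p and miR-202-3p summed to 3.36 to 23.3 CPM in eyes, 8.86 to 112 in lungs and 37875 to 46213 in testicles, and none of these markers was at 0 throughout an organ. The lens and cornea pair miR-184-3p and miR-205-5p had 159 CPM in right lung 1 and 146 CPM in left lung 2, the highest of the lungs, and 8.86 to 43.7 CPM in the other 4. This pair summed to 40735 to 46431 CPM in eyes and 3184 to 9854 in testicles, so it is not a mark of the eye alone. Right lung 3, with 112 CPM, and left lung 1, with 89.4 CPM, were the lungs highest in the gonadal pair.

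The miR-199 and miR-214 strands, with the shared strand counted once, made up 0.277% ± 0.0303 of the counts in eyes, 0.548% ± 0.150 in lungs and 0.286% ± 0.0992 in testicles (SD, n = 6 each). The lowest lung was right lung 1 at 0.339% and the highest left lung 2 at 0.721%. Eyes ranged between 0.236% and 0.312%, below every lung, and testicles between 0.146% and 0.433%, overlapping both. The miR-199a strands were the most abundant: miR-199a/b-3p ranked 90th of 642 tested names in eyes, 52nd in lungs and 91st in testicles by mean level. miR-199b-5p ranked 276th in eyes, 170th in lungs and 362nd in testicles, the widest range of ranks among the 5 signals.

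**Figure D1:**
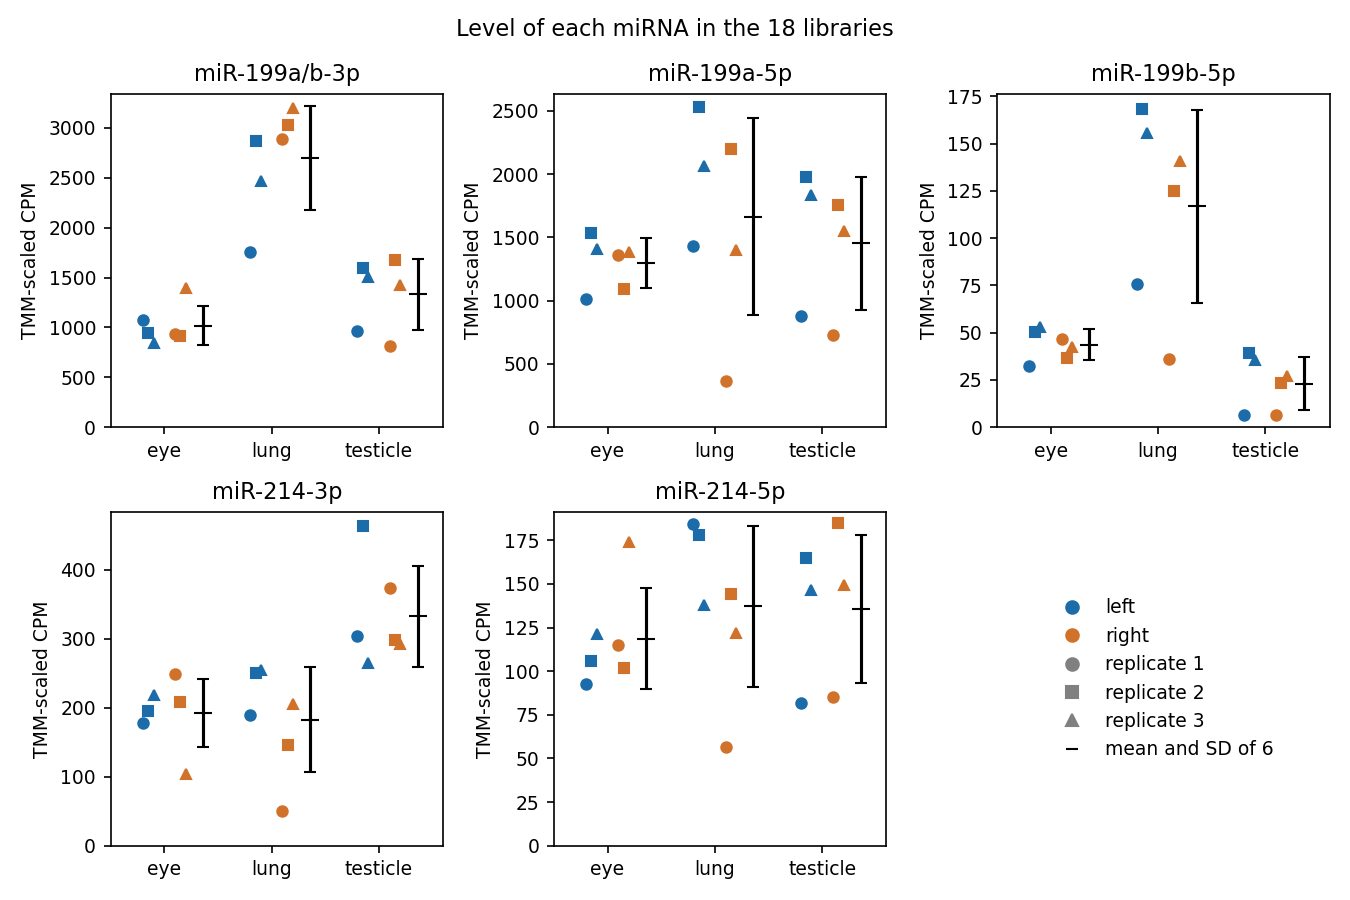
Level of each strand (y axis, TMM-scaled CPM, from 0) in the 6 libraries of each organ. Blue is left and orange right, marker shapes give the replicate number, and bars give the mean and SD of 6 libraries. All lungs lie above all eyes and testicles for miR-199a/b-3p, and right lung 1 is the lowest lung for the other 4 strands.

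Comparing eyes with lungs asks how the strands differ between an organ of neural retina and lens and one rich in vessels and airway epithelium. Of the 6 names, 3 were lower in the eye and none was higher: miR-199a-3p and miR-199b-3p, which are 1 signal, and miR-199b-5p. Among all 642 names, 59.8% differed between eye and lung, with 35.4% higher and 24.5% lower in the eye (edgeR quasi-likelihood test, Benjamini-Hochberg adjusted p under 0.05). miR-199a/b-3p had a lowest, median and highest level of 846, 937 and 1396 CPM in eyes, against 1754, 2882 and 3197 CPM in lungs. Every eye lay below every lung, as for 48.6% of all tested names in either direction. The log2 fold change of eye over lung was -1.40 (SE 0.21, 95% interval -1.84 to -0.95, edgeR adjusted p = 1.5e-05), while the median over all 642 names was 0.005.

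miR-199b-5p, the strand that only the chromosome 2 hairpin makes, had 32.3, 44.6 and 53.1 CPM as lowest, median and highest level in eyes, against 36.3, 132.8 and 168 CPM in lungs. The organs overlapped only through right lung 1, and the other 5 lungs had at least 75.5 CPM. The log2 fold change of eye over lung was -1.41 (SE 0.42, 95% interval -2.29 to -0.53, edgeR adjusted p = 0.0071). It was -1.22 with an adjusted p of 0.085 among right libraries alone, and -1.82 (adjusted p = 0.00037) without right lung 1. Without right eye 2, where the median of all tested names moved to -0.54, the values were -2.05 for miR-199a/b-3p and -2.07 for miR-199b-5p.

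The other strands of the same hairpins did not pass the test between eye and lung. miR-199a-5p had 1017, 1373 and 1534 CPM as lowest, median and highest level in eyes, against 362, 1749 and 2529 CPM in lungs. The lung values spread on both sides of the eye values, and the log2 fold change of eye over lung was -0.33 (95% interval -1.07 to 0.42, edgeR adjusted p = 0.45). miR-214-3p had 103.5, 202.05 and 249.6 CPM in eyes, against 49.8, 197 and 255 CPM in lungs (log2 fold change 0.13, 95% interval -0.49 to 0.75, edgeR adjusted p = 0.76). miR-214-5p had 92.6, 110.6 and 174 CPM in eyes, against 56.8, 141.06 and 184 CPM in lungs (log2 fold change -0.18, 95% interval -0.74 to 0.38, edgeR adjusted p = 0.58). Right lung 1 was the lowest of all 12 libraries for these 3 strands. Without it, miR-199a-5p (log2 fold change -0.76, edgeR adjusted p = 0.015) and miR-214-5p (-0.54, adjusted p = 0.042) were lower in the eye, and miR-214-3p was at -0.28 (adjusted p = 0.27). Without right eye 2, miR-199a-5p was at -0.98 (adjusted p = 0.026) and miR-214-5p at -0.82 (adjusted p = 0.017). Both were also lower in the eye among left libraries alone (-1.18 and -1.24, adjusted p = 0.0054 and 0.0029), as was miR-214-3p (-0.82, adjusted p = 0.015). The median of all tested names was -0.45 among left libraries and -0.54 without right eye 2, against 0.005 in the main fit.

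Comparing lungs with testicles, 4 of the 6 names differed, among 76.5% of all tested names. miR-199a-3p with miR-199b-3p and miR-199b-5p were higher in the lung, as were 27.4% of all names, and miR-214-3p was lower, as were 49.1%. miR-199a/b-3p had 1754, 2882 and 3197 CPM as lowest, median and highest level in lungs, against 817, 1465 and 1679.6 CPM in testicles. Every lung lay above every testicle, and the log2 fold change of lung over testicle was 1.01 (SE 0.21, 95% interval 0.57 to 1.45, edgeR adjusted p = 0.00031). The median over all 642 names was -0.90, so miR-199a/b-3p stood 1.91 above it. Organs did not overlap for 56.7% of the names in this comparison.

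miR-199b-5p had 36.3, 132.8 and 168 CPM in lungs, against 6.30, 25.5 and 39.2 CPM in testicles. Only right lung 1 lay within the range of the testicles. The testicle values rest on 6 to 63 counts per library, and the 2 lowest were left and right testicle 1. The log2 fold change of lung over testicle was 2.33 (SE 0.44, 95% interval 1.40 to 3.26, edgeR adjusted p = 0.00014), the largest of the 5 signals in this comparison. Without right eye 2, where the median of all tested names was -0.29, the log2 fold change was 2.95 (edgeR adjusted p = 1.7e-05) for miR-199b-5p and 1.64 (adjusted p = 3.6e-06) for miR-199a/b-3p.

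miR-214-3p had 49.8, 197 and 255 CPM in lungs, against 265.6, 301 and 463 CPM in testicles. No lung reached the lowest testicle, and the log2 fold change of lung over testicle was -0.92 (SE 0.29, 95% interval -1.54 to -0.29, edgeR adjusted p = 0.0095). That value stood 0.02 below the median of all tested names. The call was lost when library sizes alone set the scale (-0.51, adjusted p = 0.17) and with left lung 1 (-0.35, adjusted p = 0.25) or left testicle 1 (-0.40, adjusted p = 0.20) as the TMM reference library. It was also lost without right eye 2 (-0.29, adjusted p = 0.35), among left libraries (-0.22, adjusted p = 0.44) and on the 12 libraries of these organs alone (-0.54, adjusted p = 0.099). miR-199a-5p (362, 1749 and 2529 CPM in lungs, against 726, 1656 and 1974 CPM in testicles) and miR-214-5p (56.8, 141.06 and 184 CPM in lungs, against 81.6, 148 and 185 CPM in testicles) overlapped between the organs. Their log2 fold changes were 0.17 (95% interval -0.57 to 0.91, edgeR adjusted p = 0.68) and -0.02 (95% interval -0.58 to 0.54, edgeR adjusted p = 0.97). These values stood 1.06 and 0.88 above the median of all tested names. Without right eye 2 they were 0.78 (adjusted p = 0.046) and 0.61 (adjusted p = 0.044), where the median of all tested names was -0.29.

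Comparing eyes with testicles, 1 of the 6 names differed, while 79.3% of all tested names did, 40.2% higher and 39.1% lower in the eye. miR-214-3p had 103.5, 202.05 and 249.6 CPM as lowest, median and highest level in eyes, against 265.6, 301 and 463 CPM in testicles. All eyes lay below all testicles, as for 67.6% of the names in either direction, with a log2 fold change of eye over testicle of -0.79 (SE 0.29, 95% interval -1.42 to -0.17, edgeR adjusted p = 0.021). The call was lost without left testicle 2 (-0.65, adjusted p = 0.063), among right libraries alone (-0.83, adjusted p = 0.16), with library sizes alone (-0.53, adjusted p = 0.15) and with left lung 1 as the TMM reference library (-0.30, adjusted p = 0.31). Relative to the median of all tested names the value stayed between -0.87 and -0.82 under the 5 scalings.

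miR-199a/b-3p had 846, 937 and 1396 CPM in eyes, against 817, 1465 and 1679.6 CPM in testicles, with a log2 fold change of -0.39 (SE 0.21, 95% interval -0.83 to 0.05, edgeR adjusted p = 0.094). The organs overlapped through left and right testicle 1, at 965 and 817 CPM, and the other 4 testicles lay above all eyes. It passed the threshold, lower in the eye, when any of 8 libraries was left out: right eye 3, left lung 1, left lung 2, right lung 1, right lung 2, left testicle 1, right testicle 1 or right testicle 3. These values ran between -0.71 and -0.49. The median of all tested names, 0.045 in the main fit, moved in these fits too. It was 0.01 without left testicle 1 and between -0.20 and -0.17 without any of the others. With left lung 1 as the TMM reference library the sign of miR-199a/b-3p turned, to 0.15, where the median was 0.56. With left testicle 1 as the reference library it passed, lower in the eye (-0.52, edgeR adjusted p = 0.037), where the median was -0.12. It also passed among left libraries alone (-0.74, adjusted p = 0.016) and on the 12 libraries of these organs (-0.66, adjusted p = 0.009). The medians there were -0.06 and -0.23. Relative to the median, miR-199a/b-3p stayed between -0.43 and -0.40 under the 5 scalings. miR-199b-5p had 32.3, 44.6 and 53.1 CPM in eyes, against 6.30, 25.5 and 39.2 CPM in testicles, with a log2 fold change of 0.92 (SE 0.43, 95% interval 0.01 to 1.83, edgeR adjusted p = 0.059). Without left testicle 2 it was 1.11 with an adjusted p of 0.042, and it passed the threshold under 7 of 30 alternatives in all. The log2 fold changes of miR-199a-5p and miR-214-5p were -0.16 (95% interval -0.90 to 0.58, edgeR adjusted p = 0.68) and -0.20 (95% interval -0.76 to 0.36, edgeR adjusted p = 0.49).

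**Figure D2:**
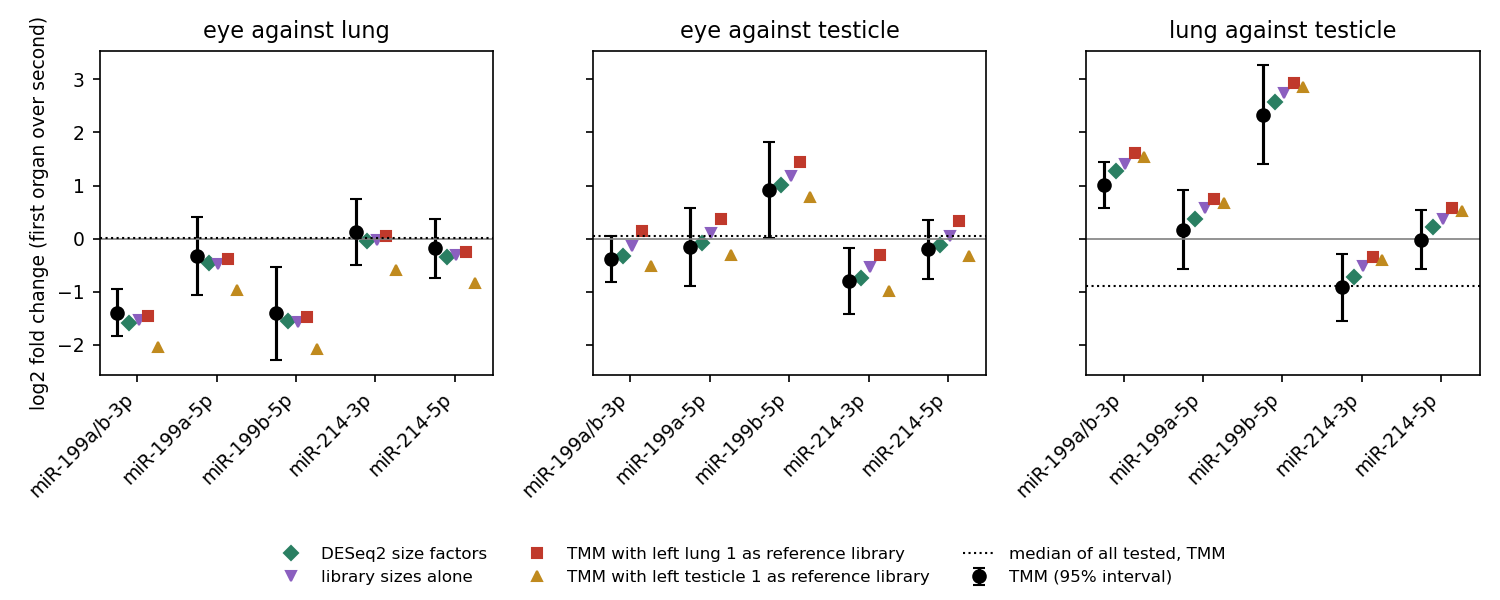
Log2 fold change of the first organ over the second (y axis) for each strand in 3 organ comparisons. Black points with bars are the TMM fit with its 95% interval, coloured points are the same fit under 4 other scalings, and the dotted line is the median of all 642 names under TMM. The coloured points of a panel shift together, and miR-199a/b-3p stays below 0 against lung in the eye and above 0 in the lung against testicle under each scaling.

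Left lung 1, left lung 2, right lung 1 and right lung 3 were the lungs highest in lens and cornea or gonadal miRNAs. A fit without them leaves a single library in each lung group, so only effect sizes are given here. The log2 fold changes of eye over lung were then -1.48 for miR-199a/b-3p and -1.74 for miR-199b-5p. Those of lung over testicle were 0.93 for miR-199a/b-3p, 2.48 for miR-199b-5p and -0.89 for miR-214-3p. In eye over testicle miR-199a/b-3p was at -0.56, where the median of all tested names was -0.16, against 0.045 in the main fit.

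The scaling moved all names together. The median log2 fold change of eye over lung was 0.005 with TMM and -0.51 with left testicle 1 as its reference library. That of lung over testicle was -0.90 with TMM and -0.31 with left lung 1 as the reference library. The split of calls moved with it: 227 names were higher and 157 lower in eye against lung with TMM, against 196 higher and 262 lower with left testicle 1 as the reference library. In lung against testicle the split was 176 higher and 315 lower with TMM, and 233 higher and 267 lower with left lung 1. Relative to these medians, miR-199a/b-3p stood between -1.56 and -1.40 in eye over lung and between 1.90 and 1.92 in lung over testicle under the 5 scalings. miR-199b-5p stood between -1.56 and -1.41 and between 3.21 and 3.24, and miR-214-3p between -0.08 and 0.12 and between -0.06 and -0.01. miR-199a-5p stood between -0.471 and -0.33 and between 1.025 and 1.069, and miR-214-5p between -0.329 and -0.189 and between 0.868 and 0.895.

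Ratios of strands within a library do not depend on the scaling, and 5 such ratios were compared over 3 organ pairs. Of these 15 comparisons 8 passed an exact two-sided permutation test over 924 splits of 6 against 6 libraries, adjusted over the 15. The smallest p it can give is 0.0022. By level, 59.8% of all names differed between eye and lung, 79.3% between eye and testicle and 76.5% between lung and testicle. Apart from the 3p to 5p ratios below, how often ratios of other names pass was not computed. The count of 8 therefore has no background share.

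Among the miR-199 5p strands, miR-199b-5p took 3.24% ± 0.230 of the summed counts in eyes, 6.98% ± 1.80 in lungs and 1.42% ± 0.533 in testicles (SD, n = 6 each). The eyes ranged between 2.98% and 3.64%, the lungs between 5.01% and 9.14% and the testicles between 0.726% and 1.95%, so no 2 organs overlapped. By level, organs did not overlap for 48.6% of all names between eye and lung. That share was 67.6% between eye and testicle and 56.7% between lung and testicle. No such share was computed for ratios of 2 different miRNAs, and the division of reads between these 2 names is uncertain. The log2 ratio of miR-199b-5p to miR-199a-5p differed by -1.13 for eye minus lung, 1.28 for eye minus testicle and 2.40 for lung minus testicle. Each had an exact permutation p of 0.0022, the smallest possible, and an adjusted p of 0.0065. The ratio was 0.101 in right lung 1, which was low in both strands, and also in right lung 3, the 2 highest lungs.

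The ratio of the shared 3p strand to the 2 summed 5p strands had a lowest, median and highest value of 0.581, 0.737 and 1.03 in eyes, 1.07, 1.23 and 7.26 in lungs and 0.791, 0.922 and 1.12 in testicles. Every eye lay below every lung, and the log2 difference of eye minus lung was -1.20 (exact permutation p = 0.0022, adjusted p = 0.0065). It was -0.78 (adjusted p = 0.019) without right lung 1, whose ratio of 7.26 compares with at most 2.08 in the other lungs. Lung minus testicle differed by 0.89 (exact permutation p = 0.011, adjusted p = 0.020). The call was lost without left testicle 2, left testicle 3, right testicle 2 or right testicle 3, with adjusted p values between 0.081 and 0.097, and the difference was 0.48 (adjusted p = 0.042) without right lung 1. Eye minus testicle was -0.30 (exact permutation p = 0.11, adjusted p = 0.16).

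The same test of the 3p to 5p ratio was run on each of 191 hairpins with both strands tested. It called 14.1% of them between eye and lung, 35.1% between eye and testicle and 26.2% between lung and testicle. For miR-199a, whose 3p count also holds miR-199b-3p, eye minus lung was -1.25 (exact permutation p adjusted over the hairpins 0.023), and 31 of the 191 hairpins differed by more. The eye lay wholly below the lung, as organs did not overlap for 9.42% of the hairpins. Lung minus testicle was 0.98 (adjusted exact permutation p = 0.015), with 77 hairpins differing by more, and eye minus testicle was -0.28 (adjusted exact permutation p = 0.23). For miR-199b, set against the same shared 3p count, eye minus lung was -0.13 (adjusted exact permutation p = 0.96). Eye minus testicle was -1.55 (adjusted exact permutation p = 0.0098), with 46 hairpins differing by more. The eye and testicle libraries did not overlap in this ratio, as for 22.0% of the hairpins. Lung minus testicle was -1.42 (adjusted exact permutation p = 0.056). Neither miR-199 ratio is of the strands of 1 hairpin alone. For miR-214 the differences were 0.34 for eye minus lung (adjusted exact permutation p = 0.65), -0.66 for eye minus testicle (0.20) and -1.001 for lung minus testicle (0.042). The median size over all hairpins was 0.51, 0.73 and 0.80 for these pairs.

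miR-214-3p was the more abundant strand of its hairpin in 5 of 6 eyes, 5 of 6 lungs and all 6 testicles. Its ratio to miR-214-5p had a lowest, median and highest value of 0.596, 1.88 and 2.17 in eyes, 0.878, 1.22 and 1.84 in lungs and 1.61, 2.38 and 4.35 in testicles. Over the 5 ratios, the difference of lung minus testicle in this one was -1.001 on the log2 scale (exact permutation p = 0.011, adjusted p = 0.020). Eye minus lung was 0.34 (adjusted exact permutation p = 0.44), and 0.63 (adjusted p = 0.029) without right eye 3, the eye at 0.596. Eye minus testicle was -0.66 (adjusted exact permutation p = 0.16).

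The miR-214 strands were also set against the miR-199 strands of the same arm. The ratio of miR-214-3p to miR-199a/b-3p had a median of 0.218 in eyes, 0.0758 in lungs and 0.249 in testicles. Its log2 difference was 1.60 for eye minus lung (exact permutation p = 0.0087, adjusted p = 0.020) and -2.06 for lung minus testicle (exact permutation p = 0.0022, adjusted p = 0.0065). All lungs lay below all testicles, and 5 of 6 eyes lay above all lungs. Eye minus testicle was -0.46 (adjusted exact permutation p = 0.33). The ratio of miR-214-5p to miR-199a-5p had a lowest, median and highest value of 0.0693, 0.0889 and 0.126 in eyes, 0.0657, 0.0788 and 0.157 in lungs and 0.0802, 0.0948 and 0.118 in testicles. The organs overlapped throughout, and the log2 means were -3.47 ± 0.278 in eyes, -3.47 ± 0.536 in lungs and -3.39 ± 0.208 in testicles (SD, n = 6 each). The log2 differences were -0.002, -0.078 and -0.076 for eye minus lung, eye minus testicle and lung minus testicle (adjusted exact permutation p of 1, 0.69 and 0.80).

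**Figure D3:**
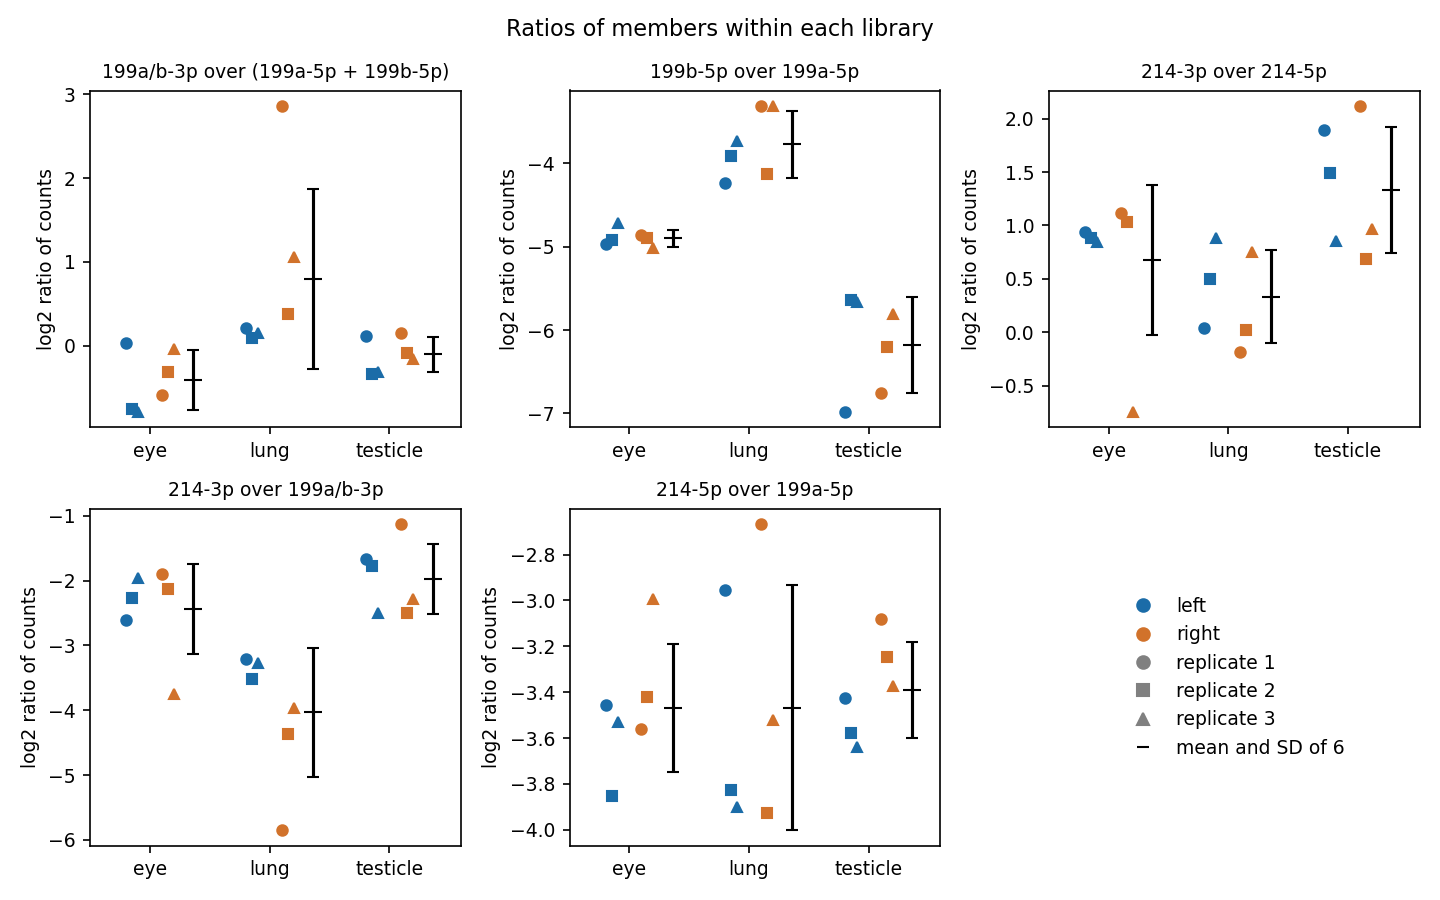
Log2 ratio of the counts of 2 strands, or of a strand and a sum, in each library (y axis), by organ. Blue is left and orange right, marker shapes give the replicate number, and bars give the mean and SD of 6 libraries. The 3 organs separate fully for miR-199b-5p over miR-199a-5p and overlap throughout for miR-214-5p over miR-199a-5p, while right lung 1 lies at 2.86 in the first panel.

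The strands also varied between libraries of an organ. The deviation of each library from the mean log2 level of its organ was taken for each strand. In right lung 1 it was -1.97 for miR-199a-5p, -1.50 for miR-199b-5p, -1.68 for miR-214-3p and -1.17 for miR-214-5p, and 0.12 for miR-199a/b-3p. That library stood apart in strand ratios in general. It was the outermost lung for 101 of 191 hairpins (52.9%), against 19.4% to 41.9% in the other 17 libraries, and its median absolute log2 deviation was 1.10, against 0.273 to 0.652. Its pigment epithelium pair (miR-204-5p and miR-211-5p) summed to 1632 CPM, against 187 to 692 in the other lungs, and its part in the low strands was not tested. That pair summed to 82988 to 91722 CPM in eyes and 10645 to 15814 in testicles. Left and right testicle 1 were the lowest testicles for miR-199a/b-3p, miR-199a-5p, miR-199b-5p and miR-214-5p. Their deviations were -0.41 and -0.65 for miR-199a/b-3p and -1.39 and -1.42 for miR-199b-5p, but -0.11 and 0.19 for miR-214-3p. Their red cell pair (miR-451a and miR-144-3p) summed to 226 and 254 CPM, against 4529 to 8133 in the other testicles, and its part in the low strands was not tested. In right eye 3, miR-214-3p deviated by -0.84 and miR-214-5p by 0.58, the lowest and the highest eye for these strands.

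**Figure D4:**
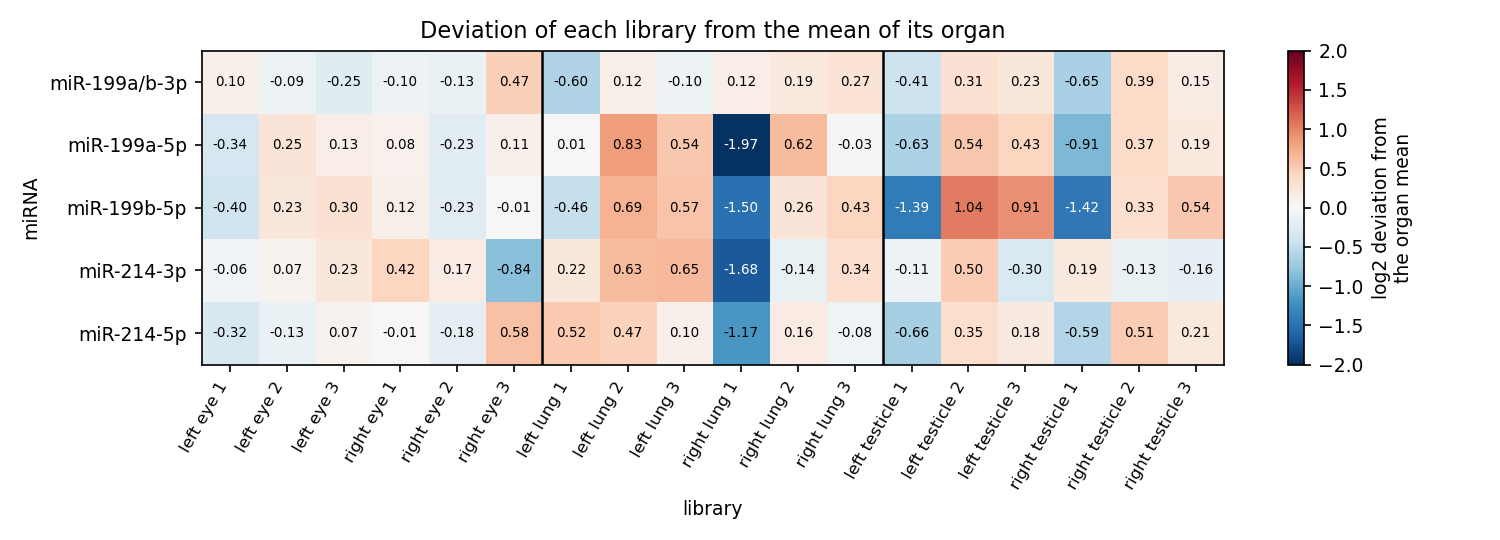
Deviation of each library (x axis) from the mean log2 level of its organ, for each strand (y axis), on a scale of red above and blue below the mean, with the value printed in each cell. Right lung 1 is below -1.1 for 4 strands and at 0.12 for miR-199a/b-3p, and left and right testicle 1 are below the mean for all miR-199 strands.

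How alike the strands were over all 18 libraries was measured as the root mean square difference of their centred log2 levels, a description with no test, in which the points share organ and depth. The nearest pair was miR-199a-5p and miR-214-5p at 0.339. The miR-214 strands were 0.675 apart, miR-199a/b-3p and miR-199a-5p 0.817, and the farthest pair, miR-199b-5p and miR-214-3p, 1.57. Among 308 other names with a mean of at least 50 CPM, the 5 nearest to miR-199a/b-3p were miR-21a-5p (0.349), miR-126a-3p (0.380), let-7d-5p (0.431), miR-151-5p (0.439) and let-7i-5p (0.457). miR-21a-5p, widely expressed and known for its rise in fibrotic tissue, averaged 5935 ± 617 CPM in eyes, 18462 ± 4202 in lungs and 9522 ± 1784 in testicles (SD, n = 6 each). miR-126a-3p, made from an intron of the endothelial gene Egfl7, averaged 25019 ± 3408, 49076 ± 8628 and 27309 ± 3015 CPM in these organs. The 3 nearest to miR-214-3p were miR-501-3p (0.397), miR-148b-3p (0.409) and miR-106b-5p (0.418). miR-501-3p averaged 144.2 ± 24.6 CPM in eyes, 132 ± 32.1 in lungs and 236 ± 41.5 in testicles.

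The strands were set beside a list of 30 other miRNAs known from fibroblasts, smooth muscle and other stromal cells, of which 27 were tested. Whether the names of this list are particular to stroma was not tested. In eye against lung 59.8% of all names were called, 35.4% higher and 24.5% lower. Of the list 5 were higher, 10 lower and 12 not called, with a median log2 fold change of -0.41, against 0.005 for all names. The 4 most abundant were miR-99a-5p (log2 fold change -0.01, edgeR adjusted p = 1), miR-143-3p (-0.94, 2.2e-06), miR-21a-5p (-1.63, 5.2e-07) and miR-100-5p (-0.17, 0.23). The 5 higher in the eye were miR-29c-3p (1.52), miR-31-5p (2.08), miR-335-3p (1.09), miR-483-5p (6.12) and miR-708-5p (4.87). In lung against testicle 76.5% of all names were called, 27.4% higher and 49.1% lower. Of the list 16 were higher, 4 lower and 7 not called, with a median of 0.70, against -0.90 for all names. The lower ones were miR-100-5p (-0.80), miR-99a-5p (-0.48), miR-10b-5p (-4.93) and miR-483-5p (-4.04). In eye against testicle 79.3% of all names were called, 40.2% higher and 39.1% lower. Of the list 12 were higher, 9 lower and 6 not called, with a median of 0.30, against 0.05 for all names. The 9 lower in the eye were miR-143-3p (-0.90), miR-145a-5p (-1.47), miR-145a-3p (-1.20), miR-21a-5p (-0.68), miR-100-5p (-0.97), miR-99a-5p (-0.48), miR-10b-5p (-5.35), miR-195a-5p (-1.73) and miR-497a-5p (-2.15). The list summed to 86104 to 96004 CPM in eyes, 119018 to 144548 in lungs and 95341 to 119254 in testicles. Smooth muscle miRNAs (miR-143-3p and miR-145a-5p) summed to 17859 to 21767 CPM in eyes, 40828 to 45312 in lungs and 28205 to 33908 in testicles. These sums are not TMM-scaled. With TMM neither name was called in lung over testicle (log2 fold change 0.04 and 0.53, edgeR adjusted p = 0.77 and 0.19). Epithelial miRNAs summed to 4920 to 9420 CPM in eyes, 22742 to 38081 in lungs and 1912 to 3089 in testicles, with 5 of 5 tested names lower in eyes against lungs. Leukocyte miRNAs summed to 1182 to 1643 CPM in eyes, 9228 to 14021 in lungs and 751 to 1410.0 in testicles, with 5 of 5 tested names lower in eyes against lungs. Among all names 24.5% were lower in this comparison. The stromal, smooth muscle, endothelial, epithelial and leukocyte sums all move with the level of miR-199a/b-3p between eye and lung, and their part in it was not tested. They are not separate signals, as the smooth muscle pair is also in the stromal list. Germ cell miRNAs moved the same way, with 150 to 226 CPM in eyes and 7221 to 20904 in lungs. Neural, photoreceptor, pigment epithelium, lens and cornea and striated muscle sums went the other way, and gonadal and red cell sums overlapped.

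Left and right were the second axis of the study, and no strand passed the test between the sides of an organ. In lungs miR-199a/b-3p averaged 2364 ± 567 CPM in left lungs and 3039 ± 153 CPM in right lungs, and miR-214-3p 232 ± 36.8 CPM in left lungs and 134 ± 78.4 CPM in right lungs (SD, n = 3 each). The log2 fold changes of left over right were -0.46 (SE 0.26) and 0.74 (SE 0.48), each with an edgeR adjusted p of 0.91. The other lung values were 0.59 (SE 0.52) for miR-199a-5p, 0.35 (SE 0.53) for miR-199b-5p and 0.59 (SE 0.39) for miR-214-5p, and the right lungs include right lung 1. Without that library the lung values were -0.42 for miR-199a/b-3p, 0.38 for miR-214-3p, 0.16 for miR-199a-5p, -0.02 for miR-199b-5p and 0.33 for miR-214-5p, each with an edgeR adjusted p of 1. In eyes the log2 fold changes of the 5 signals lay between -0.29 and 0.12, and in testicles between 0.10 and 0.70, with adjusted p values of 0.98 in eyes and 0.72 to 0.95 in testicles.

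Over all organs the log2 fold changes of left over right lay between -0.16 for miR-199a/b-3p and 0.34 for miR-199b-5p, with edgeR adjusted p values of 0.82 to 0.94. A joint test of whether the side difference varied between organs gave an adjusted p of 1 for each strand. These side comparisons called 0% of all tested names with edgeR. At an unadjusted p under 0.05 they held 18 of 487 names in eyes, 1 of 430 in lungs and 36 of 464 in testicles. Over all organs it was 37 of 642 names, and in the joint test 21 of 642. Each held 0 of the 6 members, which says little at shares this low. DESeq2 called 1 name in eyes, 1 in testicles and 0 in the others, none of them a member. Of the 5 ratios, the 3p strand over the summed 5p strands was lower in left than in right libraries by 0.54 on the log2 scale before adjustment (log2 means -0.17 in left and 0.37 in right libraries, exact permutation within organs p = 0.039, adjusted over the 5 ratios 0.19). The other ratios had differences of -0.26 to 0.57 and adjusted exact permutation p values of 0.24 to 0.78. Without left eye 1 the first difference was -0.64 with an adjusted p of 0.033, and without right lung 1 it was -0.28 with an adjusted p of 0.35.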

How the data were processed

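MicroRNAs were counted in 18 small RNA libraries, 3 of each side of eye, lung and testicle. The deposited tables, 1 for each library, give raw read counts as whole numbers under mature miRNA names, per the file headers. The submitters' processing notes name GRCm38.p6; the aligner, the counter, and the use of multi-mapping reads or molecular identifiers were not given in the sources used here. Reads without identifiers are not independent molecules. Names with identical counts (22 in 10 sets) were kept.

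The test was edgeR 4.0.16 under R 4.3.3 (TMM scaling, filterByExpr by group, quasi-likelihood test, Benjamini-Hochberg adjustment over all tested names, threshold 0.05). Organs were compared as the mean of both sides in 1 fit of 6 groups over 18 libraries. Left was compared with right within each organ (487 names tested in eye, 430 in lung, 464 in testicle), over all organs with organ as a term, and jointly for a side difference that varies by organ. Within-library ratios used log2 of counts plus 0.5 and exact permutation tests, for sides within organs (8000 splits, smallest p 0.00025). Alternatives were other scalings, no filter, DESeq2 1.42.0, a replicate block, identical names kept once, single sides, organ pairs alone, each library left out, and ratio pseudocounts of 1 and 0.1. A fit without the 4 lung libraries highest in eye or testicle miRNAs was chosen after seeing the data. The edgeR and ratio procedures were tested on simulated counts.

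The members and lists were chosen with earlier results of these data known. Named are all 6 members, the 4 most abundant tested miRNAs of the stromal list with those against its majority, and the 5 names nearest to miR-199a/b-3p and 3 nearest to miR-214-3p in centred log2(CPM + 1). Of the cell type marker lists, those bearing on the members are printed. Sequences are from RefSeq tables, which matched 5 of the 6 names, and overlapping genes from GENCODE M21.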

Additional observations from a re-analysis of the deposited data

Results flagged for a closer look

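In 30 groups of 6 libraries (5 levels and 5 ratios in 3 organs), 3 values stood far from the other libraries of their organ by Dixon's 95% criterion for 6 samples, which chance meets in about 1 of 20 groups. They came from 2 libraries. Right eye 3 had the highest miR-214-5p level among eyes, 173.8 TMM-scaled CPM, against 92.6 to 121 CPM in the other eyes, a gap of 0.644 of the range. The same library had the lowest log2 ratio of miR-214-3p to miR-214-5p, -0.75, against 0.84 to 1.11 in the other eyes, a gap of 0.854 of the range. Right lung 1 had the highest log2 ratio of miR-199a/b-3p to the summed miR-199 5p strands, 2.86, against 0.09 to 1.05 in the other lungs, a gap of 0.652 of the range. The cause of these values was not tested.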

How the results depend on the processing

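Across 30 alternatives each, miR-199a/b-3p kept its direction and call in eye against lung and in lung against testicle, as did miR-199b-5p in lung against testicle. miR-199b-5p in eye against lung lost its call among right libraries alone. In eye against testicle miR-199a/b-3p, not called in the main fit, passed when any of 8 single libraries was left out. It also passed among left libraries, on the organ pair alone and with left testicle 1 as the TMM reference library. The calls of miR-214-3p were lost under 4 alternatives in eye against testicle and 6 in lung against testicle. miR-214-5p in lung against testicle passed the threshold with the other sign with left lung 1 as the TMM reference library (0.58), among left libraries (0.72) and without right eye 2 (0.61, in a range of -0.13 to 0.61 over single libraries left out), and miR-214-3p in eye against lung among left libraries (-0.82). In these fits the median of all tested names also moved. In lung against testicle it was -0.31, -0.33 and -0.29 in the order given, and in eye against lung it was -0.45. The cause of the changed signs was not tested. Counts of called names stayed within 1.5 times the 384, 509 and 491 reported in the organ comparisons (310 to 495 in eye against lung, 412 to 615 in eye against testicle, 399 to 604 in lung against testicle).

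Without the filter on low counts, the sides differed for 6 names in the eye and 1 in the lung, and the joint test called 7. DESeq2 called 1 name between the sides of the eye and 1 of the testicle, and the fit without 4 lungs, chosen after seeing the data, called 1 in left against right over all organs. Leaving out single libraries gave 0 to 1 calls in left against right eye, testicle and all organs and in the joint test, 7 to 9 ratio calls between organs and 0 to 1 ratio calls between sides. The side ratio called, without left eye 1, was the 3p strand over the summed 5p strands.

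Same-numbered left and right libraries of an organ deviated with correlations of -0.61 to 0.29 over 314 names, and 2 of 9 pairs exceeded 0.1, left and right testicle 1 at 0.20 among them, so the numbers were not taken to pair the samples. With a replicate block, 383, 509 and 490 names were called in the 3 organ comparisons in the order above, against 384, 509 and 491 without it, 0 in each side comparison, and 8 and 0 ratios between organs and sides. Of the members' calls it changed miR-199b-5p in eye against testicle, to 1.17 with an adjusted p of 0.0040. Counts of 6 and 7 for miR-199b-5p in left and right testicle 1 limit the precision of its lowest values.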
